A study of Homo sapiens with 6 samples.

Results

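The genes described here are 7 keratins (KRT7, KRT8, KRT18, KRT19, KRT20, KRT23 and KRT80) and 3 CEACAM genes (CEACAM1, CEACAM5 and CEACAM6), chosen by name as genes of colon epithelium. All 10 had a named probe set, out of 18417 named genes on the array. HCT 116 cells, an established colorectal carcinoma line of human origin, were transiently transfected with siRNA and collected 48 h later. The duplex targeted Che-1, whose gene is AATF, in the 3 samples labelled siChe-1, and GFP, which these cells do not make, in the 3 labelled control. Each sample, from 6 micrograms of RNA, was read on 1 whole-transcript Affymetrix array. Values are the deposited log2 RMA intensities, and a difference is siChe-1 minus control on that scale.

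The level of the targeted gene was opposite to the group names. AATF read 8.74 ± 0.18 on the arrays labelled siChe-1 and 7.62 ± 0.12 on those labelled control (SD, n = 3 each), a difference of 1.12 with a limma adjusted p of 0.00122. Groups are therefore named by their labels throughout, and every direction given would turn if the labels were exchanged. Whether the 3 arrays of each kind represent independent cultures is not stated, so the p-values reflect array-to-array spread alone, which may be technical. In a bulk sample, fewer cells that express a gene and less RNA per cell cannot be told apart.

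Keratins build the intermediate filaments of epithelial cells. Each filament is assembled from pairs of a type II and a type I chain, and in simple epithelia such as the colon the main pair is keratin 8 with keratin 18, joined by keratins 7, 19, 20 and 23 to an extent that depends on the tissue and its maturity. CEACAM proteins are cell surface adhesion molecules of the immunoglobulin superfamily. CEACAM1 spans the membrane and has a signalling tail, while CEACAM5, the carcinoembryonic antigen used as a tumour marker, and CEACAM6 are held by a lipid (GPI) anchor.

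As a check of the cell type, EPCAM, an epithelial adhesion protein, read 10.1 ± 0.17 on arrays labelled siChe-1 and 10.4 ± 0.31 on those labelled control, CDH1 (E-cadherin) 8.17 ± 0.09 and 7.85 ± 0.07, and CDX2, an intestinal transcription factor, 7.07 ± 0.42 and 7.07 ± 0.09 (SD, n = 3 each). Probe set numbers mostly run by chromosome. That of EPCAM, a chromosome 2 gene, lies nearer to ATOH1 on chromosome 4 than to VIL1 on chromosome 2. Its signal may therefore come from a copy, which was not tested. VIL1, a microvillus protein (3.71 and 3.63), and CDH17, an intestinal cadherin (2.62 and 2.61), read low and are not shown to be above background in either group. VIM, the intermediate filament of mesenchymal cells, also read low, at 4.06 and 4.09. No measured marker of leukocytes (0 of 5), fibroblasts (0 of 7) or endothelium (0 of 4) passed the test by limma. At an unadjusted p under 0.05 there was 1 such leukocyte marker, CD14, and 1 fibroblast marker, COL1A1, both with values above control (differences of 0.38 each). CD14 read 3.87 on siChe-1 arrays and 3.49 on control arrays (adjusted p = 0.119), and COL1A1 7.41 and 7.02 (adjusted p = 0.107). The next nearest were TYROBP, a leukocyte adaptor, at 6.07 and 5.84 (adjusted p = 0.343), and COL3A1, a fibroblast collagen, at 4.24 and 3.99 (adjusted p = 0.343). For these 4 genes all siChe-1 values lay above all control values, which held for 10.6% of all genes. Other markers had differences below 0. They were ITGAM (-0.24) among the leukocyte markers, and THY1 (-0.19), PDGFRB (-0.10) and COL1A2 (-0.011) among the fibroblast markers. The endothelial genes CDH5 (3.82 and 3.63, adjusted p = 0.513) and PECAM1 (2.94 and 2.86, adjusted p = 0.800) overlapped between groups. The mean level of the 5 leukocyte markers lay between 3.85 and 3.96 on siChe-1 arrays and between 3.76 and 3.87 on control arrays, and that of the 7 fibroblast markers between 3.95 and 4.16 and between 3.92 and 3.98. Their part in the results below was not tested.

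Of the 10 genes, 2 were lower on the arrays labelled siChe-1 and none was higher, by limma at a Benjamini-Hochberg adjusted p under 0.05 over all genes. These were KRT19, lower by 1.51-fold, and CEACAM1, lower by a measured 2.09-fold. Over all 18417 genes, 3.72% passed, 2.52% as lower and 1.19% as higher (465 and 220 genes). With array medians subtracted the whole-table split was 680 lower and 170 higher, and with array weights 1517 lower and 1348 higher. With siChe-1 replicate 1 dropped it was 826 lower and 739 higher. Leaving out that array took the whole-table count to 1565 from 685, and leaving out any other array gave between 272 and 462. At an unadjusted p under 0.05, 6 of the 10 genes had lower values, against 9.77% of all genes, and 0 had higher values, against 7.88%. The same 6 genes, KRT7, KRT8, KRT18, KRT19, KRT23 and CEACAM1, were those whose 3 siChe-1 values all lay below the 3 control values, which held for 13.3% of all genes. In none of the 10 did all siChe-1 values lie above all control values, which held for 10.6% of all genes. Differences were below 0 for 9 of the 10, against 49.1% of all genes. The median difference of the 10 genes was -0.39, beside 0.0051 for all genes. Because the 10 genes were chosen with earlier results of these data known, these shares and medians are descriptions.

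**Figure D1:**
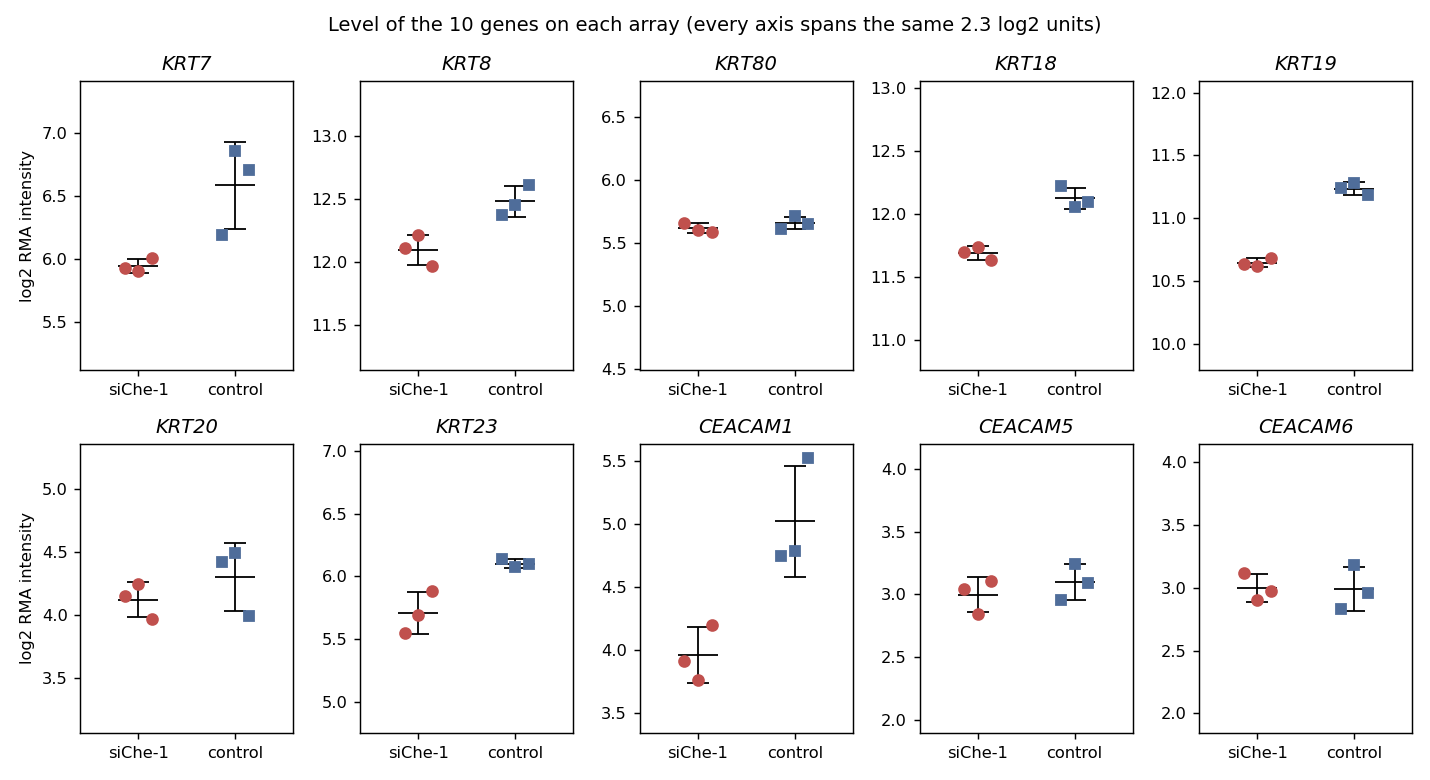
Level of each of the 10 genes on each array, as log2 RMA intensity, with the 3 arrays labelled siChe-1 (circles) left of the 3 labelled control (squares). Long bars are group means and whiskers are SDs over 3 arrays. Every vertical axis spans the same range, centred on the gene. The groups are apart for KRT7, KRT8, KRT18, KRT19, KRT23 and CEACAM1, and overlap for KRT20, KRT80, CEACAM5 and CEACAM6.

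The type II keratins were KRT8, KRT7 and KRT80. KRT8, the obligate type II chain of simple epithelia, read 12.1, 12.2 and 12.0 on the arrays labelled siChe-1, against 12.4, 12.5 and 12.6 on those labelled control. Its signal was among the brightest of the array, above 99.3% of probe sets in the siChe-1 group and 99.6% in the control group. All 3 siChe-1 values were below the lowest control value, by a gap of 0.16, but the difference of -0.39 ± 0.13 (SE, 95% confidence interval -0.66 to -0.11) did not pass (limma adjusted p = 0.130). The intervals given here hold for a single gene and are not adjusted over genes.

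KRT7, a keratin of ducts and glands more than of normal colon, read 5.93, 5.90 and 6.01 on siChe-1 arrays, against 6.19, 6.86 and 6.70 on control arrays. The siChe-1 values were close together, and the control values were spread over 0.66, with replicate 1 the lowest. The difference was -0.64 ± 0.17 (SE, 95% interval -1.01 to -0.27) and did not pass (limma adjusted p = 0.0681). Without control replicate 1 it was -0.83 and passed (limma adjusted p = 0.0238). With any other array left out it did not pass (limma adjusted p between 0.0567 and 0.258). Without control replicate 2 it was -0.50.

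KRT80, a type II keratin found in many epithelia, read 5.66, 5.60 and 5.59 on siChe-1 arrays, against 5.62, 5.71 and 5.66 on control arrays. The groups overlapped. The difference was -0.045 ± 0.11 (SE), with a 95% interval of -0.29 to 0.20. With 1 array left out it lay between -0.068 (without control replicate 1) and -0.018 (without control replicate 2), and it was -0.068 when siChe-1 replicate 1 was dropped and -0.030 when siChe-1 replicate 3 was.

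Among the type I keratins, KRT19 passed. KRT19 is the smallest keratin, lacks most of the tail domain of the other chains, and its fragments are measured in serum as a tumour marker. It read 10.6, 10.6 and 10.7 on the arrays labelled siChe-1, against 11.2, 11.3 and 11.2 on those labelled control. The spread within a group was small, at 0.067 over the siChe-1 arrays and 0.099 over the control arrays, against a gap of 0.50 between the groups. The difference was -0.59 ± 0.11 (SE, 95% interval -0.84 to -0.34, limma adjusted p = 0.0171), so the siChe-1 level was 66.4% of the control level. Exact permutation of the group names over the 6 values gave a two-sided p of 0.1, the lowest possible with 3 arrays against 3. With any 1 array left out the difference stayed between -0.62 and -0.57. The adjusted p was then above the threshold, between 0.0568 and 0.0905, except without siChe-1 replicate 1, where it was 0.00974.

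KRT18, the type I partner of KRT8, had 2 probe sets with its symbol alone, and KRT8 and KRT18 both have many processed copies in the genome that can share signal. No probe coordinates were available to settle which measures the gene. The number of the probe set with the lower mean lies close to that of KRT7 on chromosome 12, where KRT18 lies. That of the one with the higher mean lies close to that of SPINK4 on chromosome 9, so it may measure a copy. The probe set with the higher mean stands for KRT18 in the counts and plots. The probe set with the higher mean read 11.7, 11.7 and 11.6 on siChe-1 arrays, against 12.2, 12.1 and 12.1 on control arrays. The other read 10.1, 10.2 and 10.1 on siChe-1 arrays, against 10.5, 10.4 and 10.5 on control arrays. On both, all 3 siChe-1 values lay below all 3 control values, by gaps of 0.32 and 0.22. The differences were -0.44 ± 0.11 (SE, 95% interval -0.69 to -0.18, limma adjusted p = 0.0680) and -0.33 ± 0.11 (SE, 95% interval -0.58 to -0.08, limma adjusted p = 0.146). Neither passed. With 1 array left out, the first passed only without siChe-1 replicate 1 (limma adjusted p = 0.0383, otherwise up to 0.249). The difference of KRT8, -0.39, lay between those of its partner's 2 probe sets.

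KRT23, a type I keratin known from colon and pancreatic tumour cells, read 5.55, 5.69 and 5.88 on siChe-1 arrays, against 6.14, 6.07 and 6.10 on control arrays. Here the siChe-1 arrays were the more spread group, with replicate 3 nearest to the controls. The difference of -0.39 ± 0.12 (SE, 95% interval -0.67 to -0.12) did not pass (limma adjusted p = 0.120).

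KRT20, which marks the mature cells of the upper crypt and surface colon epithelium, read 4.15, 4.24 and 3.97 on siChe-1 arrays, against 4.42, 4.49 and 3.99 on control arrays. The groups overlapped, since control replicate 3 lay within the siChe-1 range, and the difference was -0.18 ± 0.15 (SE, 95% interval -0.52 to 0.17). It was -0.33 without control replicate 3, -0.085 without control replicate 2, -0.12 without control replicate 1, and -0.10 when siChe-1 replicate 3 was dropped. Its mean exceeded 39.1% of probe sets in the siChe-1 group and 42.0% in the control group, which is not shown to be above background.

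**Figure D2:**
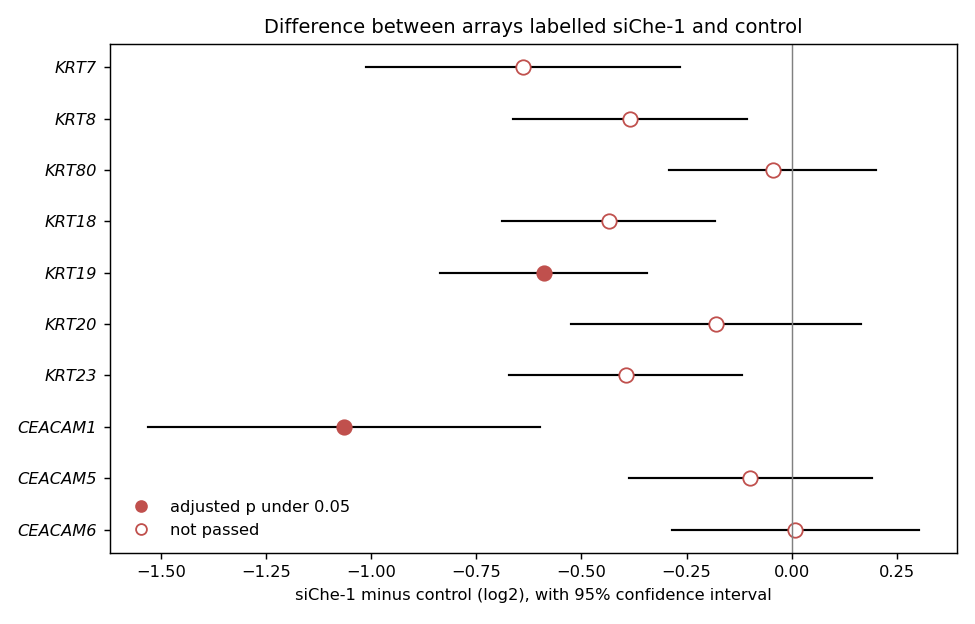
Difference between the arrays labelled siChe-1 and those labelled control for each of the 10 genes (log2, horizontal axis). Points are fitted differences, lines are 95% confidence intervals for the single gene, and filled points passed at an adjusted p under 0.05 over all genes. CEACAM1 (-1.06) and KRT19 (-0.59) are filled, and the intervals of KRT7, KRT8, KRT18 and KRT23 also lie below 0.

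Of the 3 CEACAM genes, CEACAM1 passed, while CEACAM5 and CEACAM6 did not. CEACAM1, an adhesion receptor whose long form carries inhibitory tyrosine motifs, read 3.91, 3.76 and 4.20 on the arrays labelled siChe-1, against 4.75, 4.79 and 5.53 on those labelled control. All siChe-1 values were below all control values, by a gap of 0.55, and control replicate 3 stood above the other control arrays. The difference was -1.06 ± 0.21 (SE, 95% interval -1.53 to -0.60, limma adjusted p = 0.0217), and the exact permutation test, two-sided, gave p = 0.1. Its mean exceeded 37.1% of probe sets in the siChe-1 group and 50.6% in the control group. With no detection calls, neither group's level is shown to be above background, which leaves the fold uncertain. The difference was -0.81 without control replicate 3 (limma adjusted p = 0.0573). It also did not pass without control replicate 2 (-1.18, adjusted p = 0.0590) or siChe-1 replicate 2 (-0.97, adjusted p = 0.0605).

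CEACAM5 read 3.05, 2.84 and 3.11 on siChe-1 arrays, against 2.96, 3.24 and 3.09 on control arrays, and CEACAM6 read 3.12, 2.90 and 2.98 against 2.83, 3.18 and 2.96. Both genes overlapped between groups and sat low on the array, with CEACAM5 above 22.3% of probe sets in the siChe-1 group and 24.3% in the control group. Neither is shown to be above background in either group, so these values do not show that the genes were unchanged. The differences were -0.099 (95% interval -0.39 to 0.19) for CEACAM5 and 0.0086 (95% interval -0.29 to 0.30) for CEACAM6, and the sign of CEACAM6 depends on the scaling. The CEACAM5 difference was -0.021 when siChe-1 replicate 2 was dropped and -0.027 when control replicate 2 was. It was -0.17 when control replicate 1 was dropped and -0.15 when siChe-1 replicate 3 was.

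The start regions of the 3 CEACAM genes are shown as a description. CEACAM1 passed the test, while CEACAM5 and CEACAM6 did not and are not shown to be above background. Whether these closely related genes differed from each other was not tested, nor was any link to these sequences. RefSeq windows of 300 bases (250 before the start of the gene and 50 after, GRCh38.p14) were found for 5 of the 10 genes, namely KRT8, KRT20, CEACAM1, CEACAM5 and CEACAM6. They were searched on both strands for GAAA repeated after any 2 bases, the kind of repeat bound by interferon regulatory factors, for TGANTCA, the AP-1 motif, and for GGGCGG, the GC box bound by SP and KLF factors. No pair of these motifs overlapped in the windows shown. Capitals mark the matches, and a match is a description of letters, not evidence of binding. The windows lie on chromosome 19 at chr19:42528432-42528731 (minus strand) for CEACAM1, chr19:41708376-41708675 (plus strand) for CEACAM5 and chr19:41755280-41755579 (plus strand) for CEACAM6.
CEACAM1: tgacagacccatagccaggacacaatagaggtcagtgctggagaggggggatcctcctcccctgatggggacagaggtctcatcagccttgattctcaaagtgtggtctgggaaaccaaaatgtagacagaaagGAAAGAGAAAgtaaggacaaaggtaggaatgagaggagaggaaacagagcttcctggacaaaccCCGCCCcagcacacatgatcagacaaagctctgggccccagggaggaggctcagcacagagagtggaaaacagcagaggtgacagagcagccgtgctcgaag
CEACAM5: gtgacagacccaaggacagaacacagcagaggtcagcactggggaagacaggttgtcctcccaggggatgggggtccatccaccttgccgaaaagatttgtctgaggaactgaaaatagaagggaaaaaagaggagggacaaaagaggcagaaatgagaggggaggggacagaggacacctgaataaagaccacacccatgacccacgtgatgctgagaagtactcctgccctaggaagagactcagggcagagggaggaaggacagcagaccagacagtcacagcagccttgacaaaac
CEACAM6: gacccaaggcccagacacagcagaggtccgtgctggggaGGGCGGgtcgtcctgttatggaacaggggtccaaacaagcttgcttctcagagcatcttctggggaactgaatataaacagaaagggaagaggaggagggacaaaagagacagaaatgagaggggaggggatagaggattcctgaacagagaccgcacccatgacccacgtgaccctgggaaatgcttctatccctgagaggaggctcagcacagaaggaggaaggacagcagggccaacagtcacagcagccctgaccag

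CEACAM1 held 1 match to the interferon regulatory factor repeat, GAAAGAGAAA, whose first base lies 116 bases before the start of the gene, and the other 4 windows held none. That repeat occurs in 3.57% of the 35116 RefSeq windows of this length. In a pairwise global alignment, the CEACAM1 window was 72.0% identical to that of CEACAM5 and 74.8% identical to that of CEACAM6 over the columns without a gap. CEACAM5 and CEACAM6 were 78.8% identical to each other. The letters aligned to the CEACAM1 repeat were GAAAAAAGA in CEACAM5 and GGAAGAGGA in CEACAM6, identical at 7 of 10 positions in each case. The GC box was found in 2 of the 5 windows, CEACAM1 and CEACAM6, and occurs in 15786 of the 35116 windows. No window of the 5 held the AP-1 motif, which 7.71% of all windows hold.

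The genes whose profile over the 6 arrays was most like that of CEACAM1, by the root mean square difference after subtracting each gene's own mean, were PARP10, an ADP-ribosyltransferase (0.16 on the log2 scale), IFITM3, an interferon-induced membrane protein (0.20), and AGPAT4-IT1, a non-coding transcript (0.21). PARP10 read 5.79, 5.37 and 5.59 on siChe-1 arrays, against 6.41, 6.33 and 6.95 on control arrays. IFITM3 read 9.68, 9.55 and 9.67, against 10.7, 10.5 and 10.9. AGPAT4-IT1 read 3.98, 4.31 and 4.34, against 5.19, 5.31 and 5.59. As with CEACAM1, control replicate 3 was the highest array for each of them. Picking genes by likeness over the same arrays favours that trait. IFITM3 has near-identical relatives, so its signal can be shared. The profiles nearest to KRT19 were those of ENTR1, an endosomal protein (0.049), SERPINH1, a collagen chaperone (0.050), and EMC7, a subunit of the ER membrane complex (0.053), which had differences of -0.52, -0.59 and -0.63. These are likenesses over 6 arrays that fall into 2 groups.

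In a list of 30 other keratins, which leaves out the hair keratins, 1 gene passed. Of the 30, 26 had a named probe set, 1 was lower and none higher, while 25 missed the threshold (median difference -0.018). The lower one was KRT15, a type I keratin of basal and stem cells of stratified epithelia. It read 5.27, 5.17 and 5.01 on siChe-1 arrays, against 6.01, 5.89 and 5.96 on control arrays, a difference of -0.80 ± 0.12 (SE, limma adjusted p = 0.00478). All siChe-1 values were below all control values, the measured fall was 1.75-fold, and KRT15 passed with any 1 array left out (adjusted p up to 0.0407). Its siChe-1 mean exceeded 51.3% of probe sets and may be background, which makes that fold uncertain. KRT14 averaged 6.26 on siChe-1 arrays and 6.67 on control arrays, with overlapping groups. Its difference of -0.41 did not pass (limma adjusted p = 0.226). Of 8 measured genes among 9 other CEACAM genes, none passed by limma, and none did at an unadjusted p under 0.05. The nearest were CEACAM4 (0.23, adjusted p = 0.397) and CEACAM3 (-0.24, adjusted p = 0.435).

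Genes for proteins that tie keratins to junctions and to each other did not pass. Of 18 genes for plakins, desmosomal and keratin-binding proteins, none was called by limma, and the median difference was -0.040. At an unadjusted p under 0.05 there were 4, beside 3251 of all 18417 genes, a count that is not read as a trait of this list. PPL (periplakin) had a difference of 0.42 (adjusted p = 0.101), and FAM83H, which organises keratin filaments, one of -0.62 (adjusted p = 0.111). Among 13 intermediate filament genes other than keratins, 1 was higher and none lower, while 12 missed the threshold (median 0.21). Over all genes, 1.19% passed as higher. Many of the 13 read low and are not shown to be above background. The brighter lamin genes had differences of -0.42 (LMNA, limma adjusted p = 0.0682), -0.35 (LMNB1, 0.377) and 0.22 (LMNB2, 0.332). SYNM, which encodes synemin, a filament protein that needs partner filaments to assemble, was a measured 1.89-fold higher. It averaged 6.04 ± 0.25 on siChe-1 arrays and 5.12 ± 0.19 on control arrays (SD, n = 3 each, difference 0.92 ± 0.16, SE, limma adjusted p = 0.0115). All siChe-1 values were above all control values, and its control level may be background, which makes the fold uncertain. SYNM did not pass without control replicate 1 (0.81, adjusted p = 0.0727), control replicate 2 (0.93, adjusted p = 0.0649) or siChe-1 replicate 3 (0.86, adjusted p = 0.0510).

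Some epithelial genes had the opposite sign to KRT19, and others had the same sign. Of 24 epithelial junction genes and regulators, 19 were measured, 3 were higher and none lower, while 16 missed the threshold (median 0.035). Over all genes, 1.19% passed as higher. TJP3, the tight junction scaffold ZO-3, averaged 8.05 ± 0.06 on siChe-1 arrays and 7.07 ± 0.03 on control arrays (SD, n = 3 each), and was 1.97-fold higher (limma adjusted p = 0.000866). ELF3, an epithelial ETS factor, was higher by 0.67 on the log2 scale (limma adjusted p = 0.0191), and GRHL2, a factor that maintains epithelial genes, by 0.60 (limma adjusted p = 0.0475). All siChe-1 values were above all control values for these 3 genes, which held for 10.6% of all genes. TJP3 passed with any 1 array left out. ELF3 then passed only without siChe-1 replicate 1 or 3 (other adjusted p up to 0.109), and GRHL2 only without siChe-1 replicate 1 (other adjusted p up to 0.193). For SPINT2 and TJP1 all siChe-1 values lay below all control values, which held for 13.3% of all genes. Their differences of -0.37 (limma adjusted p = 0.129) and -0.32 (limma adjusted p = 0.228) did not pass.

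Of 29 intestinal differentiation genes other than the 10, 24 were measured, 1 was lower and 23 did not pass (median 0.047). The lower one was KLF4, a zinc finger factor of differentiating colon epithelium, which read 6.04, 6.26 and 6.14 on siChe-1 arrays, against 7.93, 7.55 and 8.03 on control arrays, a difference of -1.69 ± 0.15 (SE, limma adjusted p = 0.000134). All siChe-1 values were below all control values, and KLF4 passed with any 1 array left out. Of 8 genes for phosphatases and a kinase that bind the CEACAM1 tail and for the enzyme that attaches GPI anchors, none passed by limma (1 at an unadjusted p under 0.05). PTPN11, the phosphatase SHP2, had a difference of 0.56 (adjusted p = 0.0718), and PIGS, a subunit of the anchoring enzyme, one of -0.33 (adjusted p = 0.326).

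**Figure D3:**
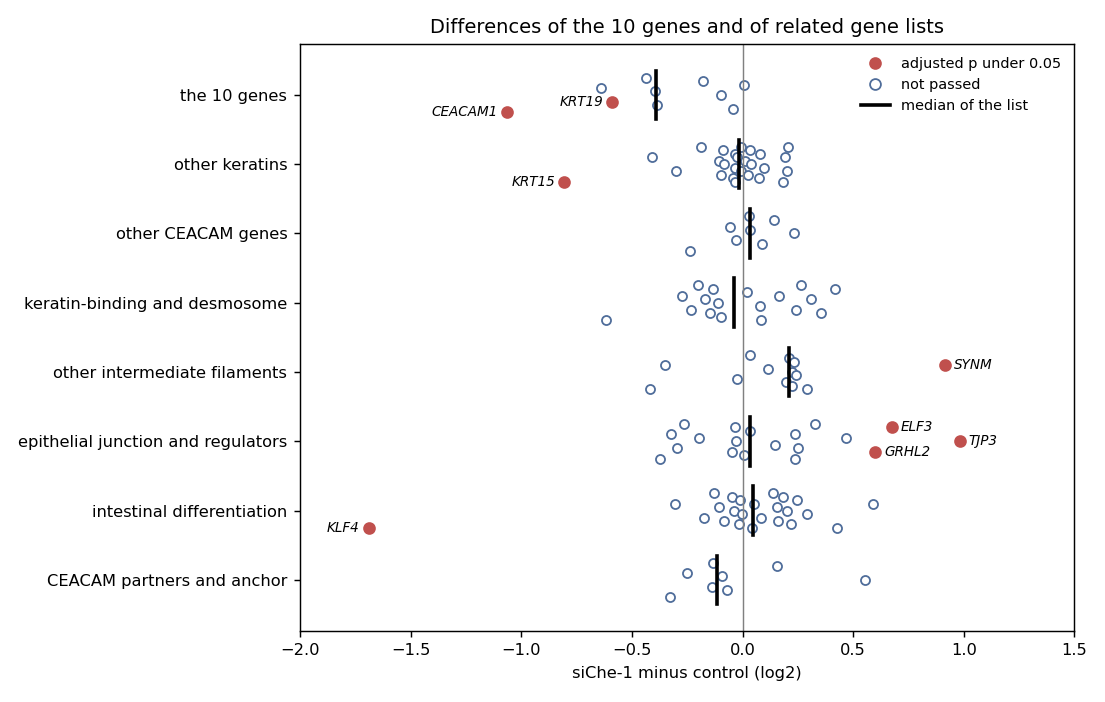
Difference between arrays labelled siChe-1 and control (log2, horizontal axis) for every measured gene of the 10 and of 7 related lists. Each point is 1 gene, red points passed at an adjusted p under 0.05 over all genes and are named, and black bars are list medians. The median of the 10 genes is -0.39, and those of the related lists lie between -0.11 and 0.21. Many genes of the other keratin, other CEACAM and other filament lists read low and are not shown to be above background.

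Several calls changed when 1 array was left out, which also leaves fewer values for the test. For KRT7, KRT8, KRT18, KRT19, KRT23 and CEACAM1 the difference stayed below 0 with any 1 array left out. The number of the 10 genes that passed as lower was then between 0 and 3. It was 0 when control replicate 2, control replicate 3 or siChe-1 replicate 2 was dropped, and 1 when siChe-1 replicate 3 was. Dropping control replicate 1 gave 2, and dropping siChe-1 replicate 1 gave 3.

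**Figure D4:**
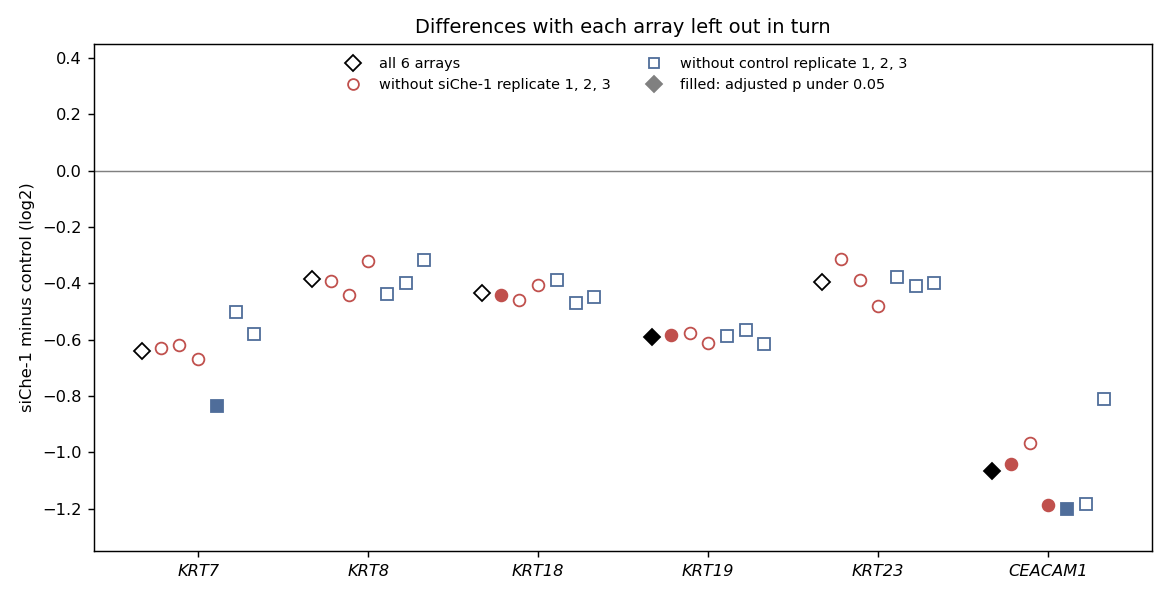
Difference between arrays labelled siChe-1 and control (log2, vertical axis) for 6 genes, with all 6 arrays (diamonds) and with each siChe-1 array (circles) or control array (squares) left out in turn. Filled symbols passed at an adjusted p under 0.05. All differences lie below 0, those of KRT19 between -0.62 and -0.57 and those of CEACAM1 between -1.20 and -0.81 when 1 array is left out.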

How the data were processed

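RNA of 6 HCT 116 samples (3 labelled siChe-1, 3 labelled control) was measured on single-colour Affymetrix arrays. The deposited table holds log2 intensities per probe set. Per the submitters' processing notes they were computed by the authors using RMA (software Affymetrix Expression Console, version not given). RMA corrects background, quantile-normalizes arrays and summarises probes, which hides any shift of total RNA per cell and compresses differences of dim genes. Array medians lay between 4.95 and 5.05. No detection calls or scanner files were used here, and there were 0 other value columns.

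The platform annotation paired 19460 of 33297 probe sets with 1 symbol. The probe set with the highest mean over the 6 arrays stood for a gene, leaving 18417 genes. All of them were fitted with limma 3.58.1 under R 4.3.3 (lmFit, eBayes, without covariates or a filter), and Benjamini-Hochberg adjusted p under 0.05 was called. The fit was tested on simulated data. Promoters and motifs came from RefSeq (GRCh38.p14) and were searched in Python 3.11.15.

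The 10 genes and the 10 lists set beside them were chosen with earlier results of these data known. Named from each list were all called genes where 5 or fewer, otherwise the 4 with the largest change, or the 2 with the smallest p where none was called, and for each called gene of the 10 the 3 most similar profiles. EPCAM, CDH1, CDX2, VIL1 and CDH17 are named as colon epithelial markers. VIM, KRT14, SPINT2, TJP1, LMNA, LMNB1 and LMNB2 were added by choice after their values were seen. Alternatives were other normalizations, filters, probe set rules, variance models, thresholds, a replicate block and leaving out each array.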

Additional observations from a re-analysis of the deposited data

How the results depend on the processing

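The count of the 10 genes that passed as lower, 2 in the fit described, was 3 after another quantile normalization, with an intensity trend and robust prior, or with the replicate block. It was 4 with array medians subtracted, 5 with array weights, and 0 at an adjusted p under 0.01. It was 1 with all 33297 probe sets tested, and 1 with the dimmest 40% of genes left out. That filter keeps 6 of the 10 genes and removes CEACAM1, while KRT19 still passed (limma adjusted p = 0.0148). With 1 array left out the count ranged from 0 to 3. No gene of the 10 passed as higher in any setting run. The whole-table count of 685 was 408 with all probe sets tested, 2865 with array weights, 1145 with the replicate block, 261 at an adjusted p under 0.01, and between 272 and 1565 with 1 array left out. The sign of CEACAM6 turned with array medians subtracted (-0.056), with array weights (-0.0057), and without control replicate 1 (-0.072), control replicate 3 (-0.0059) or siChe-1 replicate 1 (-0.051). With 1 array left out it ranged from -0.072 to 0.10, the highest without control replicate 2. With all probe sets tested, CEACAM1 had an adjusted p of 0.0949, and KRT19 passed at 0.0484. The other probe set of KRT18 was tried after seeing the data, and the count of 2 stayed. Under the replicate block KRT7 also passed (limma adjusted p = 0.0184), and CEACAM1 had a limma adjusted p of 0.000141. The replicate numbers were not taken as pairs, since the labels do not say that a number is shared. Same-numbered arrays deviated together with correlations of 0.23, 0.064 and -0.045. Differently numbered arrays gave between -0.23 and 0.16, which does not settle whether arrays were paired. The number of arrays and the lack of detection calls limit what can be said of KRT20, CEACAM5, CEACAM6 and the low values of CEACAM1.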
